A study of Mus musculus with 6 samples.

Results

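Costimulatory receptors give a T cell the second signal that, together with antigen recognition, sets how strongly it responds, and 10 of their genes were followed here among the 56941 genes of a mouse RNA-seq count table. The 10 genes were taken by name, with earlier results of these data known: Cd28 and Icos of the CD28 family, Cd27, Tnfrsf4, Tnfrsf9, Tnfrsf18 and Tnfrsf1b of the TNF receptor superfamily, the nectin-binding receptor gene Cd226, and Slamf1 and Slamf6 of the SLAM family. Each symbol matched 1 Ensembl identifier, and all 10 genes had enough counts to be tested. The cells were labelled as naïve CD8+ T cells from the spleens of B6 mice, stimulated for 3 days on plates coated with antibodies to CD3 and CD28, with IL-2 at 100 U/ml. The treated group (3 samples) received sphingosine-1-phosphate (S1P), a bioactive lipid, at 5 µM from 24 h, and the control group (3 samples) received vehicle. All 6 samples were therefore exposed to an antibody against CD28 itself, the product of a gene described here. The growth protocol in the labels names purified naive T cells or whole splenocytes as starting material. The labels call the samples biological replicates but tie them to no animal or culture, so the p-values measure the spread between these samples.

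CD28 is present on resting T cells, binds CD80 and CD86 on antigen-presenting cells, and signals through PI3K and protein kinase C theta, while ICOS is induced by activation and binds ICOS ligand. The TNF receptors work through TRAF adaptors, which lead to NF-kB. CD27 is carried by naive and memory cells, whereas OX40 (Tnfrsf4), 4-1BB (Tnfrsf9) and GITR (Tnfrsf18) appear after activation and are also known from regulatory and CD4 T cells. TNFR2 (Tnfrsf1b) binds TNF. CD226 binds CD155, the product of Pvr, and competes for it with the inhibitory receptor TIGIT. SLAM receptors mostly bind copies of themselves on neighboring cells and signal through the adaptor SAP, and SLAMF6 is used as a marker of progenitor-like CD8+ T cells.

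Total counts ranged from 12048880 to 17384084 per sample. The lowest raw count of any of the 10 genes was 450, for Tnfrsf18 in vehicle-treated replicate 3, where counting error alone amounts to 4.71%. S1P-treated replicate 2 stood apart from the other S1P-treated samples: mitochondrially encoded genes took 7.80% of its counts against 4.10% to 4.93% in the other 5 samples. The transcripts of the samples went beyond the CD8 label. Cd8a had a normalized count per kb of exons of 888 ± 99.5 (SD, n = 3) with vehicle and 558 ± 26.4 with S1P, and Cd4, which defines the other T cell lineage, 658 ± 59.4 and 707 ± 102. The ratio of Cd4 to Cd8a per exon length was 0.785, 0.601 and 0.868 in vehicle-treated and 1.095, 1.56 and 1.17 in S1P-treated replicates 1, 2 and 3. Among the marker lists, both genes specific to CD8 T cells were lower (Cd8a and Cd8b1). None of the 5 genes for CD3 chains and the T cell receptor alpha constant region, which CD4 and CD8 T cells share, was called. Cd3d and Cd3g missed only the fold change threshold, at log2 fold changes of -0.28 and -0.21 (adjusted p by edgeR = 0.0129 and 0.0444). Their groups did not overlap. Cd3e, Trac and Cd247 were at 0.15, -0.08 and 0.04, with overlapping groups. Of 3 CD4 T cell genes, 2 were higher (Zbtb7b and Cd40lg). Of 4 regulatory T cell genes, 2 were higher (Ikzf2 and Ikzf4, with Foxp3 at a log2 fold change of 0.02). Of 8 B cell genes, Ms4a1 and Cd22 were lower and Ebf1 higher. With vehicle their means ran from 38.6 (Ebf1) to 667 (Cd79a) normalized counts per kb of exons, beside 888 for Cd8a. With S1P they ran from 57.2 (Blk) to 618 (Cd79a), beside 558. Among all tested genes 12.7% were called higher and 10.4% lower. Myeloid and NK cell genes were scarce, with 6 of 8 and 2 of 5 under the filter on low counts and summed normalized counts of at most 109.8 and 66.4 in any sample. In such bulk samples fewer cells of a type and less RNA per cell cannot be told apart.

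S1P-treated samples held more transcript of 3 activation-induced TNF receptors and less of Slamf6, while the other 6 receptor genes did not pass the thresholds. Tnfrsf9 rose 1.54-fold, Tnfrsf4 1.52-fold and Tnfrsf18 1.40-fold, and Slamf6 fell to 0.675 of its level with vehicle. Calls rested on edgeR's quasi-likelihood test over all 13299 tested genes: the Benjamini-Hochberg adjusted p could not exceed 0.05, and the log2 fold change (log2FC, S1P over vehicle, given with its standard error, SE) had to reach 0.3 in either direction. By this rule 3 receptor genes were higher and 1 lower, 4 in all, beside 12.7% higher, 10.4% lower and 23.1% called in all among the tested genes. The median log2FC was 0.07 over the 10 genes and 0.01 over all tested genes. By family, 3 of 5 TNF receptors, neither of the CD28 family genes, 1 of 2 SLAM genes and not Cd226 were called. For 6 of the 10 genes, all samples of one group lay above all samples of the other, which held for 45.6% of tested genes. The libraries were also scaled on the summed counts of Cd3d, Cd3e, Cd3g, Cd247 and Trac, which CD4 and CD8 T cells share. The TMM-normalized sum of these genes was 12918 to 14203 in vehicle-treated and 12011 to 14156 in S1P-treated samples. This scaling moved the median of all tested genes to 0.07 and left the calls of the 10 genes as they were. Calls among all tested genes went from 1687 higher and 1384 lower to 1852 and 700.

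**Figure D1:**
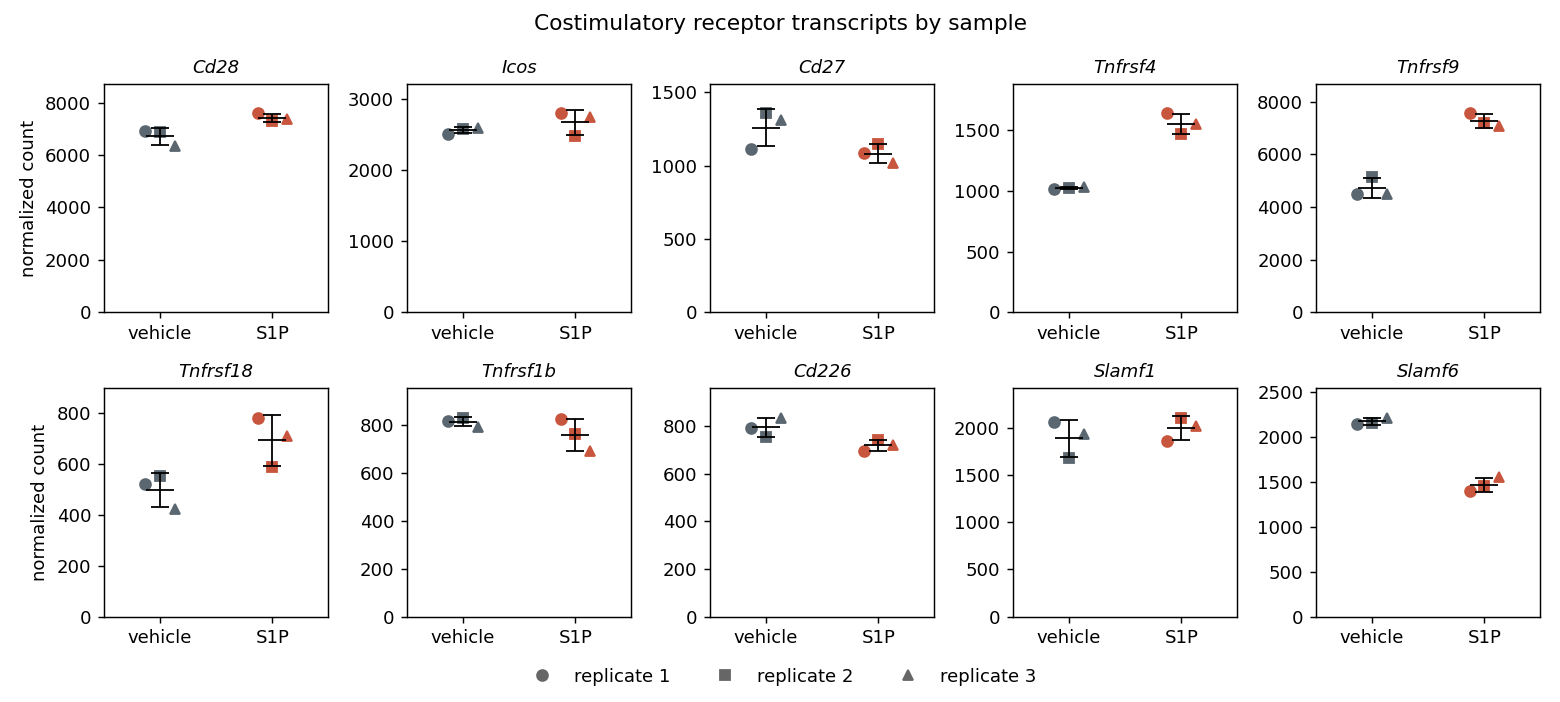
Normalized counts (TMM scaling) of each receptor gene in every sample, on axes that start at 0; symbols are replicates and black bars the mean and SD of 3 samples. Tnfrsf4, Tnfrsf9 and Tnfrsf18 lie higher and Slamf6 lower in all S1P-treated samples, and the groups of Cd28 and Cd226 do not overlap either.

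Tnfrsf9 encodes 4-1BB, a receptor that sustains the survival and division of activated CD8+ T cells. Its normalized count was 4503, 5157 and 4476 in vehicle-treated replicates 1, 2 and 3, and 7549, 7179 and 7059.5 in the S1P-treated ones. All S1P-treated samples lay above all vehicle-treated samples. The log2FC was 0.62 (SE 0.08, adjusted p by edgeR = 0.000201), with a 95% interval of 1.38 to 1.73 for the fold. It lay between 0.59 and 0.69 in every fit that left out 1 sample.

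Tnfrsf4 encodes OX40, which prolongs the response of activated T cells. Its normalized counts hardly differed between vehicle-treated replicates, at 1015, 1021 and 1029, and were 1637, 1467 and 1549 with S1P. The lowest S1P-treated sample was replicate 2, still well above the control range. Its log2FC of 0.60 (SE 0.07, adjusted p by edgeR = 0.000121) had a 95% interval of 1.37 to 1.68 as a fold.

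Tnfrsf18, for the receptor GITR, was the scarcest of the risers by raw count and varied most between replicates. Normalized counts of 519, 551 and 421 with vehicle stood against 780.2, 585 and 708 with S1P, so that vehicle-treated replicate 2 and S1P-treated replicate 2 were close. The log2FC was 0.48 (SE 0.12, adjusted p by edgeR = 0.0120), with a 95% interval of 1.16 to 1.68 as a fold. Its call was lost without vehicle-treated replicate 3 (log2FC 0.37, adjusted p by edgeR = 0.0633) and when S1P-treated replicate 3 was left out (0.46, adjusted p by edgeR = 0.0535), and the value was 0.59 without S1P-treated replicate 2. Of the exon bases of Tnfrsf18, 35.9% lie under Gm16008 on the opposite strand, a gene with only 14 to 51 counts per sample.

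CD4 and regulatory T cells also carry OX40 and GITR. Some of their marker genes were higher (Zbtb7b and Cd40lg, and Ikzf2 and Ikzf4), and the defining genes Cd4 and Foxp3 were not called, at log2FC 0.10 and 0.02 (adjusted p by edgeR = 0.487 and 0.938). The summed normalized count of the 3 CD4 T cell genes was 3222 to 3835 with vehicle and 3562 to 4486 with S1P, which overlap, and that of the 4 regulatory T cell genes 14675 to 16422 and 17661 to 19351. The latter ranges do not overlap, and the sum is mostly Il2ra (log2FC 0.23, not called). Foxp3, the defining gene of regulatory T cells, was at normalized counts of 113 to 125 with vehicle and 99.9 to 160 with S1P, overlapping between the groups. The part of these cells in the rise of Tnfrsf4, Tnfrsf9 and Tnfrsf18 was not tested.

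The remaining TNF receptors did not pass. Cd27 encodes a receptor for CD70 that supports memory formation. Its normalized counts were 1112, 1354 and 1308 with vehicle and 1082, 1144 and 1017 with S1P, so vehicle-treated replicate 1 fell into the S1P-treated range. The log2FC of -0.22 (95% interval -0.40 to -0.03, adjusted p by edgeR = 0.0766) reached the thresholds only without vehicle-treated replicate 1 (-0.30, adjusted p by edgeR = 0.0355). For Tnfrsf1b, the gene of TNFR2, the counts were 820.3, 832 and 794 with vehicle and 828, 762 and 693 with S1P. S1P-treated replicate 1 was inside the control range, and the log2FC was -0.10 (95% interval -0.27 to 0.08, adjusted p by edgeR = 0.392).

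The windows before the annotated starts of the called genes are shown because Tnfrsf4, Tnfrsf9 and Tnfrsf18 rose together and Slamf6 fell. They hold the 250 bases upstream of each start in RefSeq on build GRCm38.p6, read 5′ to 3′; entries were found for 7 of the 10 genes. Tnfrsf9 has a pair of annotated starts, and the counts do not tell which was used. Capitals mark matches, on either strand, to the AP-1 motif TGANTCA, to the NF-kB consensus, or to the ATF4-C/EBP composite TGATGNAAT, motifs of factors that act in T cell activation and in the stress response.
Slamf6, chr1:171917212-171917461, plus strand: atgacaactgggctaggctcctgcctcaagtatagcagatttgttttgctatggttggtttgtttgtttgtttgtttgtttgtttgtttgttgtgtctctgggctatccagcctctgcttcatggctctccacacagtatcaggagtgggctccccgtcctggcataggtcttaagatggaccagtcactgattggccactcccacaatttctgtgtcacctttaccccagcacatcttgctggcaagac
Tnfrsf18, chr4:156026072-156026321, plus strand: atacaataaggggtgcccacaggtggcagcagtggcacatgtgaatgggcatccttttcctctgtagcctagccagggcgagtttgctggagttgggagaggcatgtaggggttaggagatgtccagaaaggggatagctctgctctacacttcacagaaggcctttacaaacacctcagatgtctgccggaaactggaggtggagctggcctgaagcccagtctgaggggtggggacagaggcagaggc
Tnfrsf4, chr4:156013445-156013694, plus strand: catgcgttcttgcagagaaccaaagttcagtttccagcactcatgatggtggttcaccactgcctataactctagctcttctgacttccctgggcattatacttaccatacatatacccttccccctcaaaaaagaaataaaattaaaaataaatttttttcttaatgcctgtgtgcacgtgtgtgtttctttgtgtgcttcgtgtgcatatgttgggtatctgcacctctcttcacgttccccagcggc
Tnfrsf9, chr4:150919905-150920154, plus strand: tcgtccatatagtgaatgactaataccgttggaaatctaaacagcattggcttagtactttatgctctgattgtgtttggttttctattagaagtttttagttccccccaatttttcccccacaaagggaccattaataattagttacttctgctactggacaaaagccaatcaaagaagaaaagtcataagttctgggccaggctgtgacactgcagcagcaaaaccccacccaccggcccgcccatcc
Tnfrsf9, chr4:150927749-150927998, plus strand: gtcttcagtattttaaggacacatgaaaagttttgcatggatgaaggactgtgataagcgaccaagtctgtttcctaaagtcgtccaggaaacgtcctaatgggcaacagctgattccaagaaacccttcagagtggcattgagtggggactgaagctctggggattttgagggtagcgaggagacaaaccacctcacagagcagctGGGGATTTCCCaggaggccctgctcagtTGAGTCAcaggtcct
The downstream window of Tnfrsf9 held 1 AP-1 match, which begins 15 bases before the start, and 2 overlapping NF-kB matches that begin 43 and 42 bases before it. None of these letters was found in the other windows printed, nor in those read for Cd27, Slamf1 and Tnfrsf1b, which were not called. Of 32851 windows of this length, 6.75% held the AP-1 motif, 7.25% the NF-kB consensus and 0.816% the composite motif. A match describes letters and not a bound site.

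The CD28 family genes were abundant and changed little. Cd28 had normalized counts of 6924, 6887 and 6346 with vehicle and 7586, 7287 and 7358 with S1P. Every S1P-treated sample was higher, but the shift was small: the log2FC was 0.14 (95% interval -0.01 to 0.29, adjusted p by edgeR = 0.139). Icos, whose product helps effector and helper responses, had counts of 2516, 2584 and 2593 with vehicle and 2799, 2478.5 and 2748 with S1P. S1P-treated replicate 2 was below all vehicle-treated samples and the other S1P-treated samples above them, with a log2FC of 0.06 (95% interval -0.09 to 0.21, adjusted p by edgeR = 0.530). An effect on Cd28 or Icos of the size seen for Tnfrsf9 lies outside these intervals.

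Cd226, for an adhesion and activating receptor of cytotoxic cells, showed 793.5, 757 and 836 normalized counts with vehicle and 697, 744 and 719.7 with S1P. The groups were separated by a narrow gap, and the log2FC of -0.15 (95% interval -0.30 to 0.01) did not pass (adjusted p by edgeR = 0.158).

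Of the SLAM genes, Slamf6 was called lower and Slamf1 was not called. Slamf6 had normalized counts of 2145, 2162 and 2217 with vehicle and 1399, 1456 and 1552 with S1P, groups that lie far apart compared with their spread. Its log2FC was -0.57 (SE 0.07, adjusted p by edgeR = 0.000154), with a 95% interval of 0.611 to 0.746 as a ratio, and lay between -0.62 and -0.53 in the fits that left out 1 sample. Slamf1 encodes the founding member of the family, a receptor on activated T cells. Its counts of 2062, 1679 and 1938 with vehicle and 1861, 2109 and 2019.6 with S1P overlapped. The log2FC of 0.07 (95% interval -0.11 to 0.26, adjusted p by edgeR = 0.543) was -0.01 without vehicle-treated replicate 2. Both genes are also known from B cells, whose 8 marker genes summed to normalized counts of 9181 to 11506 with vehicle and 9396 to 10764 with S1P, overlapping ranges, and Cd8a and Cd8b1 fell with log2FC values of -0.67 and -0.55. The part of either cell type in the fall of Slamf6 was not tested.

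**Figure D2:**
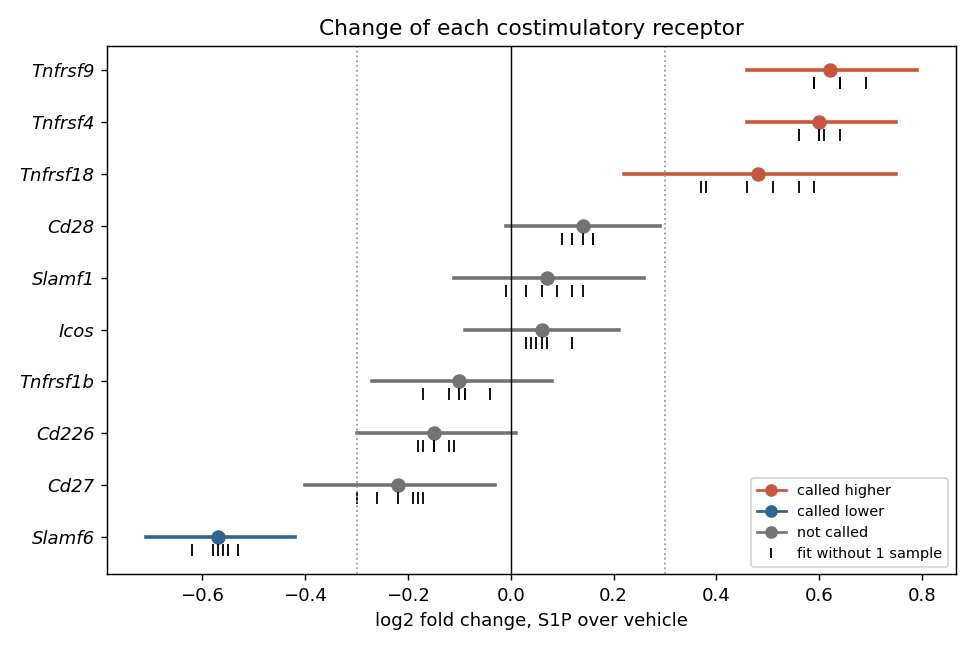
Log2FC of each receptor gene, S1P over vehicle, with its 95% interval (bars), the fits without 1 sample (ticks) and the fold change threshold of 0.3 in either direction (dotted lines). The bars of Tnfrsf9, Tnfrsf4 and Tnfrsf18 lie to the right of 0, that of Slamf6 lies beyond -0.3, and the bars of Cd28, Slamf1, Icos, Tnfrsf1b and Cd226 cross 0.

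Levels were compared between genes per kb of exons. With vehicle, Tnfrsf9 was highest with 1731 ± 142 normalized counts per kb (SD, n = 3), followed by Cd28 (1097.5 ± 52.9), Icos (748 ± 12.2) and Tnfrsf4 (745 ± 5.13), which overlapped with Icos, then Cd27 (537 ± 54.8). Below these came Tnfrsf18 (326 ± 44.4) and Slamf1 (307 ± 31.7), whose values overlapped, Slamf6 (197, 199 and 204 in the replicates), and Tnfrsf1b (165 ± 3.95) and Cd226 (159.6 ± 7.998), which overlapped as well. With S1P the order changed at a few places. Tnfrsf4, at 1131 ± 62.1 per kb, moved past Icos (780.0 ± 50.3) and overlapped with Cd28 (1210.5 ± 25.5). Slamf6 went from the eighth to the lowest place, at 135 ± 7.13, overlapping with Cd226. Tnfrsf9 took 28.75% ± 1.37 of the summed level of the 10 genes with vehicle and 35.8% ± 0.569 with S1P, while Slamf6 took 3.33% ± 0.146 and 1.81% ± 0.138. The summed level was 5868 to 6247.5 per kb in vehicle-treated and 7271 to 7734 in S1P-treated samples. This order and the shares depend on the length used. By coding length Tnfrsf9 took 21.5% and Slamf6 6.07% of the summed vehicle level. With the coding length in place of the exon length Cd28, Tnfrsf9 and Icos held ranks 1, 2 and 3 in both groups, while Tnfrsf4 went from rank 7 to 5 and stayed below Icos, and Slamf6 went from rank 5 to 7 and was not lowest.

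**Figure D3:**
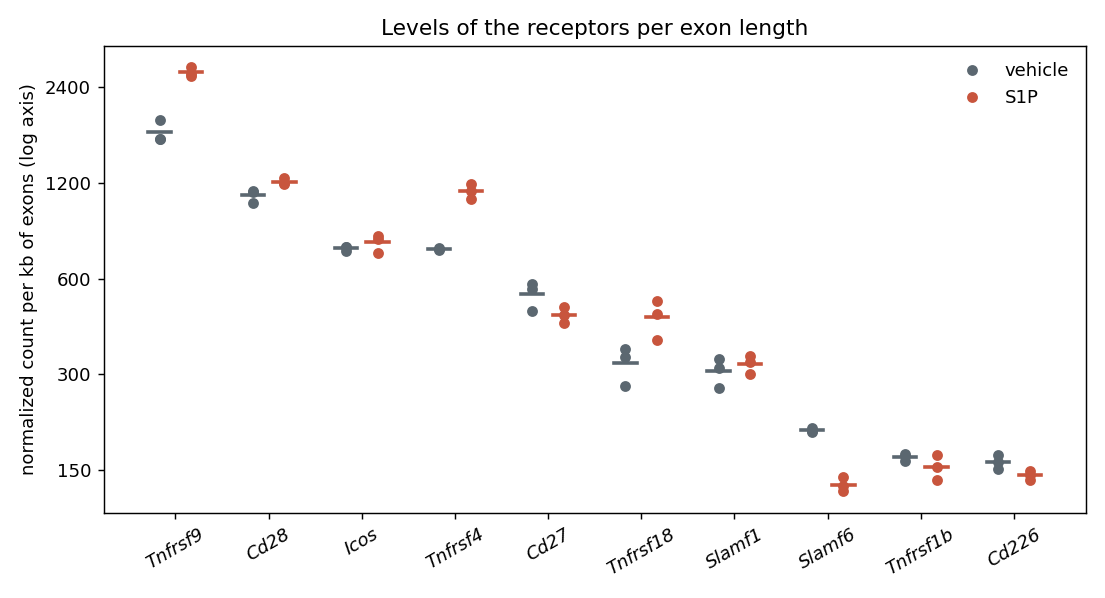
Normalized count per kb of exons for each receptor gene (log axis), with points for samples, lines for group means, and genes in the order of the vehicle-treated mean. Tnfrsf9 leads in both groups, Tnfrsf4 climbs to the level of Cd28 with S1P, and Slamf6 drops below Cd226 on this exon-length scale.

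Paired receptors were compared as log2 ratios per exon length within each sample, which do not depend on library scaling. CTLA-4 is the inhibitory receptor that takes CD80 and CD86 from CD28. Ctla4 had normalized counts of 3265, 4848 and 2974 with vehicle and 7350.4, 6986 and 6903 with S1P (log2FC 0.94, SE 0.14, adjusted p by edgeR = 0.000826). The ratio of Cd28 to Ctla4 was 0.807, 0.541 and 0.812 in vehicle-treated and 0.393, 0.397 and 0.406 in S1P-treated samples, and its log2 value differed by -0.83. Vehicle-treated replicate 2 was the low sample of its group and still above every S1P-treated sample. The ratio of Tnfrsf9 to Cd27 went from a log2 value of 1.69 ± 0.12 to 2.53 ± 0.09 (SD, n = 3 each), and that of Slamf6 to Slamf1 from -0.61 ± 0.15 to -1.26 ± 0.08. The groups did not overlap for these 3 pairs (exact permutation test, two-sided, p = 0.1 each, the smallest that 3 against 3 samples can give, and 0.2 after Benjamini-Hochberg adjustment over 6 pairs). For Cd28 to Icos, Cd226 to Tigit and Tnfrsf1b to Tnfrsf1a the groups overlapped, with differences of 0.08, 0.03 and 0.09 on the log2 scale (exact permutation p = 0.4, 0.9 and 0.7). The difference for Cd226 to Tigit changed sign when replicate 2 of either group was left out. Tigit itself had a log2FC of -0.16 and Tnfrsf1a, the gene of the other TNF receptor, of -0.19 (adjusted p by edgeR = 0.271 and 0.209).

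Most of the 10 genes sit in clusters on chromosomes 1 and 4 (positions from GENCODE vM39 on GRCm39). Cd28 (ENSMUSG00000026012, chr1:60755959-60812518) and Icos (ENSMUSG00000026009, chr1:61017086-61039479) lie 205 kb apart with Ctla4 between them. Of these 3, Ctla4 was called higher, and Cd28 and Icos were not called (log2FC 0.14 and 0.06). Slamf1 (ENSMUSG00000015316, chr1:171594695-171628764) and Slamf6 (ENSMUSG00000015314, chr1:171745057-171780737) lie 116 kb apart in a row of SLAM genes. In that row Slamf7, whose product marks effector and cytotoxic cells, rose with a log2FC of 0.73 (SE 0.07, adjusted p by edgeR = 7.64e-05), from 1374 ± 78.0 to 2274 ± 154 normalized counts (SD, n = 3 each), and Slamf6 fell. Ly9 (-0.08), Cd48 (-0.01) and Cd84 (-0.13) were not called, and the value of Cd48 was 0.01 with upper-quartile factors and 0.05 with scaling on CD3 and TCR transcripts. Cd244a, which overlaps Ly9, had a log2FC of 0.74 in overlapping groups (SE 0.35, adjusted p by edgeR = 0.139). Its mean was 15.6 normalized counts with vehicle and 27.3 with S1P. Cd244a was called without S1P-treated replicate 1 (1.03, adjusted p by edgeR = 0.0424). The value was 0.46 without S1P-treated replicate 3 and 0.51 without vehicle-treated replicate 2, neither called. Tnfrsf4 (ENSMUSG00000029075, chr4:156098293-156101069) and Tnfrsf18 (ENSMUSG00000041954, chr4:156110621-156113352) are 9.55 kb apart, and both rose. Tnfrsf9 (ENSMUSG00000028965, chr4:150999019-151030559) and Tnfrsf1b (ENSMUSG00000028599, chr4:144938938-144973477) are on the same chromosome at larger distances. Cd27 (ENSMUSG00000030336) lies at chr6:125209585-125213988 and Cd226 (ENSMUSG00000034028) at chr18:89195087-89290353. Cd244a, Ly9, Cd48 and Cd84 were picked for their position after their values were seen.

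**Figure D4:**
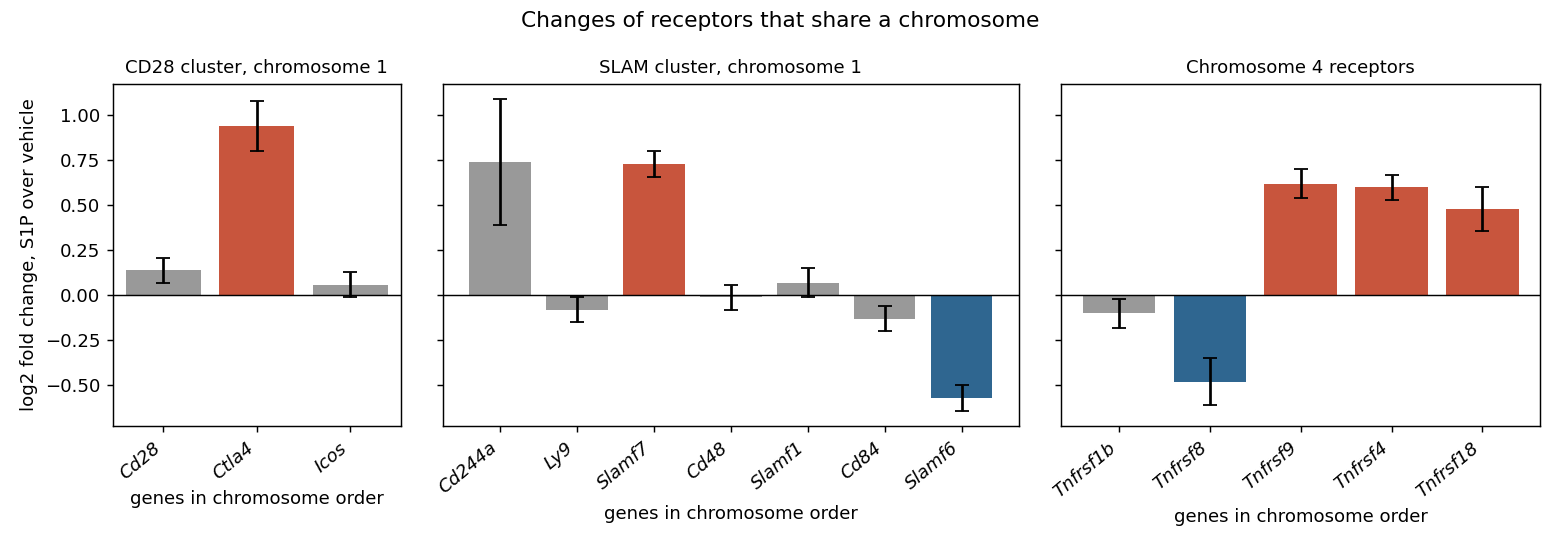
Log2FC (S1P over vehicle) with SE for receptor genes in chromosome order, red where called higher, blue where called lower and gray where not called. Of Cd28, Ctla4 and Icos, all above 0, only Ctla4 is called (left panel), and Slamf7 and Slamf6 are called in opposite directions (middle panel).

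Ligands of these receptors also changed, in both directions. Of 11 ligand genes 8 had enough counts, and 3 were higher and 3 lower, 75.0% of those tested, beside 23.1% of all tested genes. The 6 calls were 3 without vehicle-treated replicate 3, and 4 without vehicle-treated replicate 1 or S1P-treated replicate 3. Pvr, for the CD226 ligand CD155, rose from 476, 500.5 and 475 to 872, 758.5 and 843 normalized counts (log2FC 0.77, SE 0.08, adjusted p by edgeR = 7.64e-05). Tnfsf4, for OX40 ligand, fell from 156, 150.5 and 168 to 99.9, 97.0 and 93.7 (log2FC -0.71, adjusted p by edgeR = 0.00175), opposite in direction to its receptor gene. Tnfsf9, for the ligand of 4-1BB, rose from 26.8, 22.4 and 17.8 to 38.5, 54.9 and 43.4 (log2FC 1.00, SE 0.25, adjusted p by edgeR = 0.0120) on 19 to 47 raw counts per sample. That call was lost without vehicle-treated replicate 3 (0.86, adjusted p by edgeR = 0.0592).

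Cd86, a CD28 ligand, rose from 140.5 ± 12.6 to 234 ± 12.96 (SD, n = 3 each; log2FC 0.73, adjusted p by edgeR = 0.000877), while Cd80 had a log2FC of 0.12 (adjusted p by edgeR = 0.542). B cells carry CD86 and ICOS ligand, B cell genes were present, and their part in these changes was not tested. Icosl was lower by the test, at a log2FC of -0.50 (adjusted p by edgeR = 0.0315), but lost its call without vehicle-treated replicates 1 and 3 (-0.54 and -0.36) and S1P-treated replicates 1 and 3 (-0.49 and -0.52), with adjusted p by edgeR from 0.0604 to 0.148, and with scaling on CD3 and TCR transcripts (-0.44, 0.103). Lta, for a TNF-related cytokine, had a log2FC of -0.52 (adjusted p by edgeR = 0.0163), with overlapping groups, and lost its call without vehicle-treated replicates 1 and 3 (-0.47 and -0.41) and S1P-treated replicate 3 (-0.52). Tnf, whose product binds TNFR2, was at -0.37 (adjusted p by edgeR = 0.0977) and passed without vehicle-treated replicate 2 (-0.51, adjusted p by edgeR = 0.0430). Cd70 and Tnfsf18, the ligand genes of CD27 and GITR, had at most 3 counts in any sample, and Nectin2 at most 14.

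Among 21 other TNF receptor genes, 16 were tested, 2 were higher and 2 lower, beside 23.1% called among all tested genes. Fas, a death receptor gene, had a log2FC of 0.50 and Tnfrsf19 of 0.86 (adjusted p by edgeR = 0.00474 and 0.00726), the latter from 43.6 ± 8.06 to 78.9 ± 10.1 normalized counts (SD, n = 3 each). Tnfrsf21, for death receptor 6, fell from 84.1 ± 4.47 to 47.2 ± 10.2, a log2FC of -0.83 (adjusted p by edgeR = 0.00657). Tnfrsf8, for CD30, was lower at -0.48 (adjusted p by edgeR = 0.0170) but not without vehicle-treated replicate 1 (-0.35, adjusted p by edgeR = 0.0908) or 3 (-0.49, adjusted p by edgeR = 0.0528), nor with scaling on CD3 and TCR transcripts (-0.43, 0.0778). The 8 tested genes of the other SLAM receptors and adaptors gave the single call of Slamf7, but 3 calls without S1P-treated replicate 1 and 2 with no filter on low counts. Of 5 tested inhibitory counterparts, Ctla4 was higher and Pdcd1, for PD-1, lower (log2FC -0.74, adjusted p by edgeR = 0.000206), from 737 ± 22.9 to 439 ± 49.5 normalized counts.

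Of 10 tested genes for other costimulatory or adhesion molecules, 4 were higher and 2 lower, beside 23.1% called among all tested genes. The 6 calls were 4 without vehicle-treated replicate 1 or S1P-treated replicate 2. Crtam, for a nectin-like receptor of activated CD8+ T cells, had the largest fall in this list, from 2321, 2388 and 2526 to 1096, 1166 and 1256.5 normalized counts (log2FC -1.04, SE 0.07, adjusted p by edgeR = 1.11e-05), and Cd160 fell from 469.6 ± 88.7 to 249.9 ± 29.7 (-0.91, adjusted p by edgeR = 0.000866). Cd8a and Cd8b1 were lower too, and the part of the cell types present in the fall of Crtam and Cd160 was not tested. Cd40lg, which the CD4 marker list shares, Cd81, Dpp4 and Cd2 were higher, at log2FC 0.50, 0.47, 0.37 and 0.33. Without S1P-treated replicate 2, Dpp4 and Cd2 came to 0.30 and 0.23, under the fold change threshold. Dpp4 also lost its call without vehicle-treated replicates 1 and 3 (0.32 and 0.34), Cd2 without vehicle-treated replicate 1 (0.30), and Cd40lg without vehicle-treated replicate 2 (0.42) or S1P-treated replicate 3 (0.45).

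Downstream of the TNF receptors, 19 genes of TRAF signaling were all tested, with 4 higher, 1 lower and a median log2FC of 0.11. These 5 calls make 26.3%, beside 23.1% of all tested genes, and were 3 without vehicle-treated replicate 3 or S1P-treated replicate 2. By the adjusted p alone, which 28.5% of all tested genes passed, 9 of the 19 were called. Tnfaip3, for the NF-kB feedback inhibitor A20, rose from 939 ± 55.1 to 1635 ± 112 normalized counts (SD, n = 3 each; log2FC 0.80, adjusted p by edgeR = 4.82e-05). Birc2, for the ubiquitin ligase cIAP1 bound to TRAF2, rose from 1043 ± 18.3 to 1425.5 ± 1.64 (0.45, adjusted p by edgeR = 0.000437). Tank (0.34) and Map3k14, for the kinase NIK (0.32), were called higher and Traf3, for an adaptor that restrains NIK, lower (-0.33, adjusted p by edgeR = 0.00959). Without S1P-treated replicate 2, Traf3 was at -0.25 and Tank at 0.23, and Traf3 was at -0.27 with scaling on CD3 and TCR transcripts, none of them called. Tank lost its call also without vehicle-treated replicates 2 and 3 (0.30 and 0.34), and Map3k14 without vehicle-treated replicates 1 and 3 (0.31 each) and S1P-treated replicate 1 (0.25), with scaling on total counts alone (0.30) and with no filter on low counts (0.29).

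Of 18 genes of CD28 signaling, 3 were higher and 2 lower (27.8%, beside 23.1% of all tested genes), with a median log2FC of 0.01, and 8 passed by the adjusted p alone (28.5% of all tested genes). Malt1, for a paracaspase that acts in NF-kB activation, rose from 4974 ± 137 to 8489 ± 1399 normalized counts (SD, n = 3 each; log2FC 0.77, adjusted p by edgeR = 0.000325), with its highest value in S1P-treated replicate 2. Themis (0.55) and Pik3r1, for a regulatory subunit of PI3K (0.45), also rose, and Akt1 (-0.44) and Prkcq, for protein kinase C theta (-0.34), fell (adjusted p by edgeR = 0.00858, 0.00202, 0.00208 and 0.00228). Prkcq was at -0.28 with scaling on CD3 and TCR transcripts (adjusted p by edgeR = 0.0550).

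**Figure D5:**
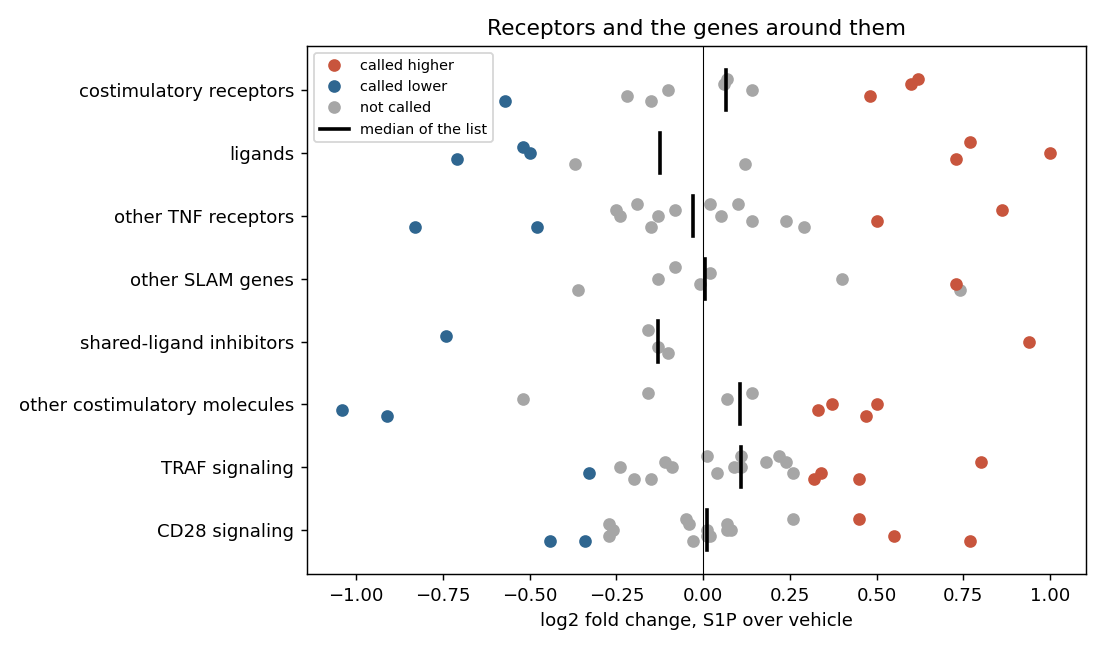
Log2FC (S1P over vehicle) of every tested gene of the receptor list and the related lists, 1 point per gene, red where called higher, blue where called lower and gray where not called; vertical bars are list medians. Ligands and other costimulatory molecules show calls on both sides of 0, and the list medians lie between -0.13 and 0.11.

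The genes closest in pattern to the member that rose most and the member that fell most were looked up by the root mean square difference of log2 CPM (counts scaled to equal library size), centered on each gene's mean over the 6 samples. Hook2, Dnaaf9 and Adam8 were nearest to Tnfrsf9, at 0.0286, 0.0360 and 0.0380, where the median over all tested genes was 0.369. Pdcd11, Prpf19 and Prmt1 were nearest to Slamf6, at 0.0201, 0.0235 and 0.0275, with a median of 0.337. These are descriptions over the samples that gave the fold changes.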

How the data were processed

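RNA from 3 S1P-treated and 3 vehicle-treated samples was analysed. Per the labels and the processing notes of the submitters, read trimming (Trim Galore) and alignment (STAR, GRCm39) preceded counting, and the authors deposited whole-number counts from featureCounts with no normalization; the annotation release and strand setting are not given in the sources used here. The libraries were strand-specific. Total counts were 12048880 to 17384084 per sample, and counting errors cover counting only.

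Symbols, positions and exon lengths came from GENCODE vM39, which held 56323 of 56941 identifiers. Genes kept by edgeR's filterByExpr (13299) were TMM-scaled; the quasi-likelihood test of edgeR 4.0.16 (R 4.3.3) had treatment as its only term, with Benjamini-Hochberg adjustment over them all. Calls used the thresholds of the study, 0.05 for the adjusted p and 0.3 for the log2 fold change (log2FC). Standard errors were the log2FC divided by the square root of the quasi-likelihood F, and 95% intervals used its degrees of freedom. Normalized counts are counts divided by TMM-based size factors. Log2 CPM used a prior count of 2, and ratios a pseudocount of 0.5 counts with exact permutation tests.

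The alternatives were DESeq2 1.42.0, limma-voom (limma 3.58.1), other scalings and filters, calls by the adjusted p alone, the replicate number as a block and the fit without each sample. The tests were tested on simulated data. Replicates were checked for repeated deposits, and chi-square per gene was 3.77 or more between any 2 replicates of a group. S1P-treated replicate 2 gave 31.40 and 17.85 against S1P-treated replicates 1 and 3, which gave 5.971 against each other. The receptors and lists were chosen with earlier results of these data known. The text names the 10 receptors, all their ligands, the paired receptors, and up to 6 called genes of each list with the largest changes, the 3 tested genes nearest in pattern to the called receptors that rose and fell most, and Cd244a, Ly9, Cd48 and Cd84 by position.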

Additional observations from a re-analysis of the deposited data

How the results depend on the processing

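Over 16 alternative settings of each of the 10 receptor genes, of which 1 dropped the fold change threshold from the same fit, 156 of 160 results kept the direction and the side of the thresholds. The others were Tnfrsf18, at 0.37 and 0.46 with replicate 3 of the vehicle-treated or of the S1P-treated group left out, Cd27 without vehicle-treated replicate 1 (-0.30), which made the count of lower receptors 2, and Slamf1 without vehicle-treated replicate 2 (-0.01, in a range of -0.01 to 0.14 over the samples left out); fewer samples entered these fits. The count of higher receptors was 2 to 3 and that of lower receptors 1 to 2 with each sample left out. Of 591 alternative results of the 37 other named genes, 555 kept both, 30 lost the call, 2 gained it and 4 reversed, all of Cd48 (0.01 with upper-quartile factors, 0.05 scaled on CD3 and TCR transcripts, a scaling chosen after seeing the data, 0.01 and 0.03 without vehicle-treated and S1P-treated replicate 2, in a range of -0.04 to 0.03). Cd244a had no value under the filter of at least 10 counts in every sample. The 11 lower calls of the 7 related lists were 7 under that scaling and 8 to 13 with a sample left out; why was not tested beyond the shift of the median of all genes to 0.07. With the replicate number as a block, 1697 genes were higher and 1423 lower, and 3 receptors were higher and 1 lower as before, as they were by the adjusted p alone. Same-numbered samples deviated together with correlations of 0.12, -0.01 and 0.05 over genes, and differently numbered ones with -0.10 to 0.05. Replicate 1 correlated best with its own number in both groups and replicate 2 in neither. With 3 samples per group these values cannot decide whether the numbers pair the samples. The difference between groups in the log2 ratio of Cd226 to Tigit (0.03) was -0.01 and -0.11 with replicate 2 of the vehicle-treated or of the S1P-treated group left out, in a range of -0.11 to 0.15. Coding length changed the shares of the summed vehicle level to 36.0% for Cd28, 13.2% for Icos, 5.88% for Cd27, 4.39% for Tnfrsf4, 21.5% for Tnfrsf9, 1.85% for Tnfrsf18, 2.01% for Tnfrsf1b, 6.46% for Slamf1 and 6.07% for Slamf6, since the genes differ in the length outside the coding part. Tnfsf9, with at most 47 raw counts per sample, had the least depth among the called ligands.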
